A study of Caenorhabditis elegans with 2 samples.

Results

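The heterochronic genes set the order and timing of cell fates as a Caenorhabditis elegans larva passes through its stages. The 10 genes examined here were listed by symbol (lin-28, ain-1, apl-1, kin-20, lin-14, lin-41, lin-42, lin-46, hbl-1 and lin-29), and all 10 were found among the 19973 protein-coding genes of the 6 nuclear chromosomes in Ensembl release 115 (assembly WBcel235, the same coordinates as ce11). For each gene, summits were taken from 5 kb upstream of the annotated 5' end to the end of the gene, a stretch called its window here. A summit is the position of highest signal within a region that the authors' peak caller reported.

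The regions came from ChIP-seq (chromatin immunoprecipitation with sequencing) against FKH-10, a forkhead transcription factor, in whole larvae at the L3 stage, of mixed sex and with the age given as unknown. Both libraries, labelled biological replicates 1 and 2, came from strain OP337, in which the allele unc119(ed3) is combined with the integrated transgene wgIs377, carrying fkh-10 fused to TY1, EGFP and FLAG together with unc119. The labels describe the tag as a C-terminal GFP and FLAG fusion and name fkh-10 as the antibody's target, and they give neither the number of animals nor the cells that express the transgene. There was 1 group and no second condition, so no test was made, and the values below are a description.

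The pooled list and each replicate's list held 30000 regions, and the authors' thresholded list was as long as 6.68% of one of them. Every thresholded peak matched a region in that top 6.68% of the pooled list by summit, within 1 bp. The same number of strongest regions in a replicate is called the replicate's top list here. Signal is the authors' own value for each region, on a scale that the sources do not give, and the depth of the libraries is unknown. It ran from 28.2 to 182 in the thresholded list and reached 132 in replicate 1 and 84.3 in replicate 2, so ranks rather than signals are set side by side between replicates. No region of the 4 lists lay within 20 kb of fkh-10 itself, and the lists therefore held nothing at the tagged gene by which the labels could be checked.

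In the heterochronic pathway, transcription factors and RNA-binding proteins that hold early larval programmes are turned down in turn by microRNAs, the small RNAs that silence matching messenger RNAs. LIN-14 and HBL-1 act in the early larva, LIN-28 and LIN-41 act on RNA, and LIN-29 drives the change from larva to adult in the epidermis. Worm relatives of circadian clock proteins, LIN-42 and KIN-20, also belong to the pathway.

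Of the 10 genes, 7 had at least 1 thresholded summit in the window, against 12.9% of all protein-coding genes (2580 of 19973). They were lin-14, hbl-1, ain-1, apl-1, kin-20, lin-28 and lin-41. The windows of lin-29, lin-42 and lin-46 held none. Long windows hold more summits, and the shares differed by window length. Among windows under 10 kb, 10.6% of all protein-coding genes had a thresholded summit, against 3 of 4 timing genes. Among windows of 10 to under 20 kb the background was 23.2%, against 3 of 3, and among windows of 20 kb or more it was 37.9%, against 1 of 3. The 5 timing genes on X all had a thresholded summit (14.6% of the 2731 protein-coding genes on X did), and so did 2 of the 5 on autosomes (background 12.6%). The genes were listed with earlier results of these data known, so these counts are no independent support for a preference.

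**Figure D1:**
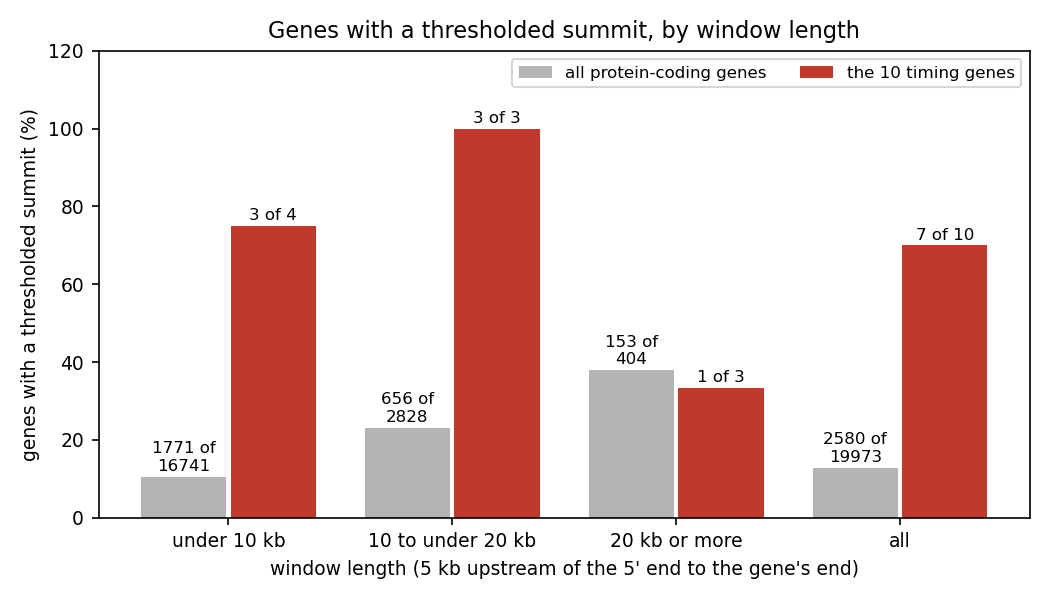
Share of genes with a thresholded summit, in percent, by length of the window, for all protein-coding genes (grey) and for the 10 timing genes (red). Numbers above the bars give genes with a summit of genes in the class, and the timing genes stood at 3 of 4, 3 of 3 and 1 of 3 from the shortest to the longest class.

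The 7 genes shared 10 thresholded summits, with signals from 31.0 to 65.0 and a median of 49.7, beside a median of 41.8 over the whole thresholded list. Of these summits 4 lay upstream of the gene, 5 in introns and 1 in a 5' UTR, and none lay in the body of another protein-coding gene. For all 10, the nearest protein-coding 5' end was that of the timing gene itself. With summits given only to the nearest 5' end, 6.94% of all protein-coding genes had one, beside 12.9% by window. Shares of positions over all thresholded summits were not counted. The distances to it ran from 879 to 9606 bp with a median of 1760 bp, beside a median of 1360 bp to the nearest protein-coding 5' end over all thresholded summits. None was within 500 bp, beside 32.2% of all thresholded summits. With every annotated transcript start counted, 1 of the 10 lay within 500 bp, at lin-28, beside 36.8% of all thresholded summits.

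**Figure D2:**
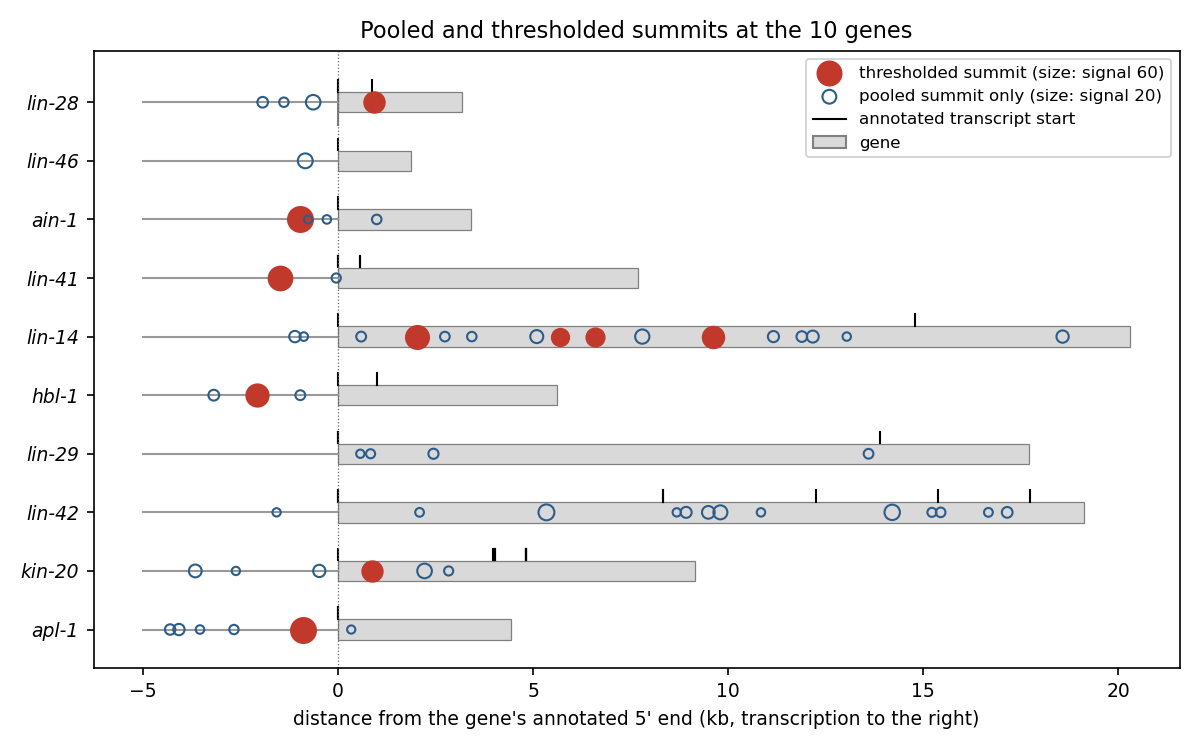
Summits in the window of each of the 10 genes, placed by distance from the annotated 5' end in kb, with the gene as a grey bar and transcript starts as ticks. Filled circles are the 10 thresholded summits and open circles are pooled summits below the threshold, with the area of a circle in proportion to its signal, and lin-14 alone carries 4 filled circles.

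The transcription factor gene lin-14 had the most thresholded summits of the 10. LIN-14 specifies the fates of the earliest larval stage and is turned down through the microRNA lin-4. The gene (WBGene00003003, chromosome X, 11465560 to 11485871, plus strand) spans 20312 bp, and all 4 of its thresholded summits lay in introns of the long transcript T25C12.1a.1, within 7576 bp of each other. Of the 404 genes with a window of 20 kb or more, 14 (3.47%) had 4 or more.

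The strongest lin-14 summit lay 2030 bp from the 5' end, in intron 1, at a signal of 55.2. Its overlapping regions ranked 925 in replicate 1 (signal 26.8) and 212 in replicate 2 (signal 31.3). The other 3 lay in intron 3, which is 11174 bp long. Of these, the one 9606 bp from the 5' end, which lay 5195 bp upstream of the start of the shorter transcript T25C12.1b.1, had a signal of 47.9 and ranked 693 and 1358 in replicates 1 and 2. Both others were weaker. The summit at 6578 bp (signal 34.3) ranked 3225 in replicate 1 and 950 in replicate 2, and that at 5694 bp (signal 31.0) ranked 2061 and 1679, so neither was in the top list of replicate 1. A further 12 pooled summits below the threshold lay in the window, from signal 7.44 to 21.3. The strongest of them, 7801 bp from the 5' end, overlapped a region at rank 1331 in replicate 1 and rank 3228 in replicate 2.

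Sequence at the lin-14 summits is shown for the longest run of purines alone or pyrimidines alone within 50 bp of each summit, because the run at the strongest of them was among the longest of the list. Capitals mark the run within 30 bases, read 5′ to 3′ on the gene's strand (plus), from the RefSeq sequence of WBcel235. The strongest summit carried a purine run of 30 bases, longer than the longest run at 98.5% of thresholded summits. Runs at 5694, 6578 and 9606 bp were of 17, 10 and 13 bases, longer than at 84.7%, 43% and 67.4%.
lin-14 intron 1, chrX:11467602-11467631: GAAAAAGAAAAAGAAAAAGGAAGAGGGAAA
lin-14 intron 3, 5694 bp, chrX:11471224-11471253: ttagatgTTCTCCTCTTTTTTTTTacatct
lin-14 intron 3, 6578 bp, chrX:11472143-11472172: ttgtcacatgCCCTTCTCTCattgagtctc
lin-14 intron 3, 9606 bp, chrX:11475133-11475162: caacacaagTTTCTCTTTTTTCactactgc

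The gene hbl-1 encodes a zinc finger factor related to Hunchback of Drosophila, a target of let-7 family microRNAs that holds back later fates. The gene (WBGene00001824, chromosome X, 5822142 to 5827755, plus strand) had 1 thresholded summit, 2085 bp upstream, at a signal of 51.5. In replicate 1 the overlapping region ranked 517 (signal 33.7). The better of 2 overlapping regions in replicate 2 ranked 1300 (signal 16.0), so the top lists of both held a region there. Next to the summit lay a pyrimidine run of 32 bases, longer than that at 99.2% of thresholded summits, of which 30 are shown on the plus strand.
hbl-1 upstream, chrX:5820058-5820087: TCTTTTTTCTTCCTTCTTCTTTCTCTTTTT

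The third transcription factor gene, lin-29, whose zinc finger product acts last in the pathway, had no strong region in any list. Its window of 22702 bp on chromosome II (WBGene00003015, 11917642 to 11935343, minus strand) held 4 pooled summits, from signal 7.24 to 10.8. The strongest of these ranked 12098 and overlapped a region at rank 6965 in replicate 2 (signal 7.45) but none in replicate 1. The best rank of any region in the window in replicate 1 was 21711 (signal 5.65). At 1.76 pooled summits per 10 kb lin-29 was below the median of 2.7 over all protein-coding windows, and 7.92% of windows of 20 kb or more had a weaker strongest region.

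Of the clock relatives, kin-20 had a thresholded summit and lin-42 did not, and each call differed between the replicates. KIN-20 is a casein kinase of the type that phosphorylates Period proteins. The gene (WBGene00002203, chromosome X, 15268602 to 15277764, minus strand) had its thresholded summit in intron 1 of the longest transcript, F46F2.2g.1, 879 bp from its start, at a signal of 43.0. The 7 other annotated transcripts start downstream of the summit. In replicate 1 the overlapping region ranked 666 (signal 30.8). The better of 2 overlapping regions in replicate 2 ranked 2459 (signal 11.5), so neither was in the top list of replicate 2. A purine run of 13 bases, longer than the longest run at 67.4% of thresholded summits, lay near the summit, shown on the minus strand.
kin-20 intron 1, chrX:15276900-15276929: tttggagacGGGAGGGAAAGAGtgaagaga

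LIN-42, the worm relative of Period, oscillates with the molting cycle. Its gene (WBGene00018572, chromosome II, 1233236 to 1252359, minus strand) had 13 pooled summits in the window, 5.39 per 10 kb, second in number to the 16 at lin-14. None was thresholded, and their signals ran from 7.23 to 26.4. The strongest lay in an intron 5344 bp from the 5' end and ranked 2210 in the pooled list, just outside the threshold, with ranks of 5452 in replicate 1 and 1359 in replicate 2. The next, 14207 bp from the 5' end (signal 24.9), ranked 4158 in replicate 1 and 10264 in replicate 2. Among windows of 20 kb or more, 76.7% held fewer pooled summits than lin-42, and 58.9% had a weaker strongest region. In the top list of replicate 2 alone, lin-42 would have had a summit and kin-20 none.

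**Figure D3:**
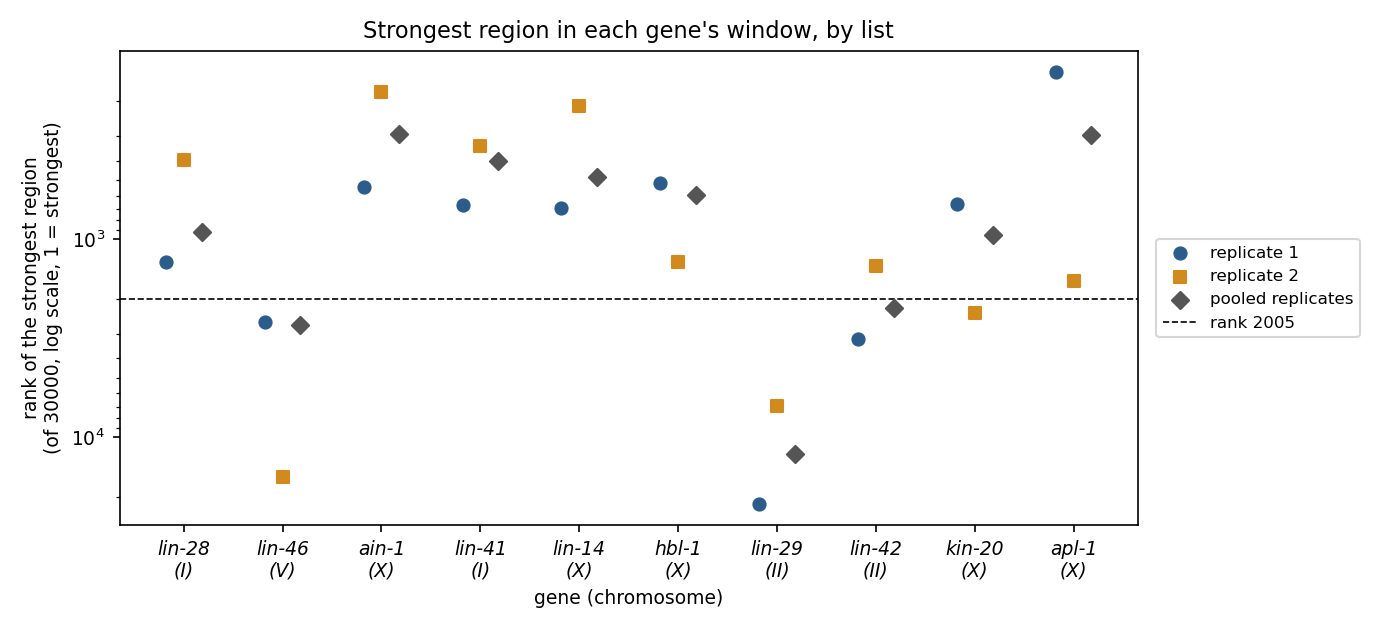
Rank of the strongest region in the window of each gene, on a log scale with rank 1 at the top, in replicate 1 (circles), replicate 2 (squares) and the pooled list (diamonds). The dashed line marks the last rank of the top list, and kin-20 and lin-42 are the genes whose replicates fall on either side of it.

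Among genes that act with or under microRNAs, ain-1 and apl-1 carried the strongest thresholded summits of the 10 genes, both upstream. AIN-1 belongs to the GW182 family, which links Argonaute proteins to the silencing of microRNA targets. The ain-1 summit (WBGene00015547, chromosome X, 16613451 to 16616871, plus strand) lay 969 bp upstream at a signal of 65.0. It ranked 542 in replicate 1 (signal 33.1) and 179 in replicate 2 (signal 32.3). This was the most GC-rich of the 10 summits, with 58.4% G and C within 50 bp (43.6% at the median of all thresholded summits), and its longest purine or pyrimidine run was 7 bases.

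APL-1 is the worm relative of the amyloid precursor protein, and its expression in the epidermis is under heterochronic control. The apl-1 summit (WBGene00000149, chromosome X, 5112422 to 5116866, minus strand) lay 885 bp upstream at a signal of 64.9. The replicates ranked it far apart, 143 in replicate 1 (signal 48.4, the best rank of any timing gene in that replicate) and 1622 in replicate 2 (signal 14.2). The remaining 5 pooled summits in the window were weak, from signal 7.10 to 13.4.

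The apl-1 summit was the only 1 of the 10 with TAAACA, a part of the forkhead core, within 50 bp on either strand. TAAACA was searched after the sequences had been seen and was present at 4.79% of all thresholded summits. It occurred there at 2 places, which read TGTTTA on the gene's strand (minus) and are in capitals in the first sequence. The second shows the pyrimidine run of 22 bases at the same summit.
apl-1 upstream, chrX:5117769-5117796: tTGTTTAggaagagctaacctTGTTTAg
apl-1 upstream, chrX:5117701-5117730: ttgtacaTCCTCCTTTTCTCTTCTTCTTTg
For contrast, the ain-1 summit held a short run of 7 pyrimidines, shown on the plus strand.
ain-1 upstream, chrX:16612472-16612501: gcggcggtgcggTTTCTCCgtctctacacg

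None of the 10 summits had RTAAAYA (A or G at the first letter, C or T at the sixth), a core sequence recognised by many forkhead proteins, within 50 bp on either strand, beside 5.54% of all thresholded summits. Neither CTCTCTC nor AGAGAGA was present at any of the 10, beside 15.5% with either, and GACGC was at none, beside 20.3%. These letters were searched with earlier results of these data known. The absence covers these windows only. Runs of 12 or more purines or pyrimidines were present at 8 of the 10, beside 39.4% of all thresholded summits, a length chosen after the sequences had been seen. The longest run had a median of 15.5 bases at the timing genes and 10 bases over all thresholded summits. The 4 summits of lin-14 share a locus and are not independent.

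**Figure D4:**
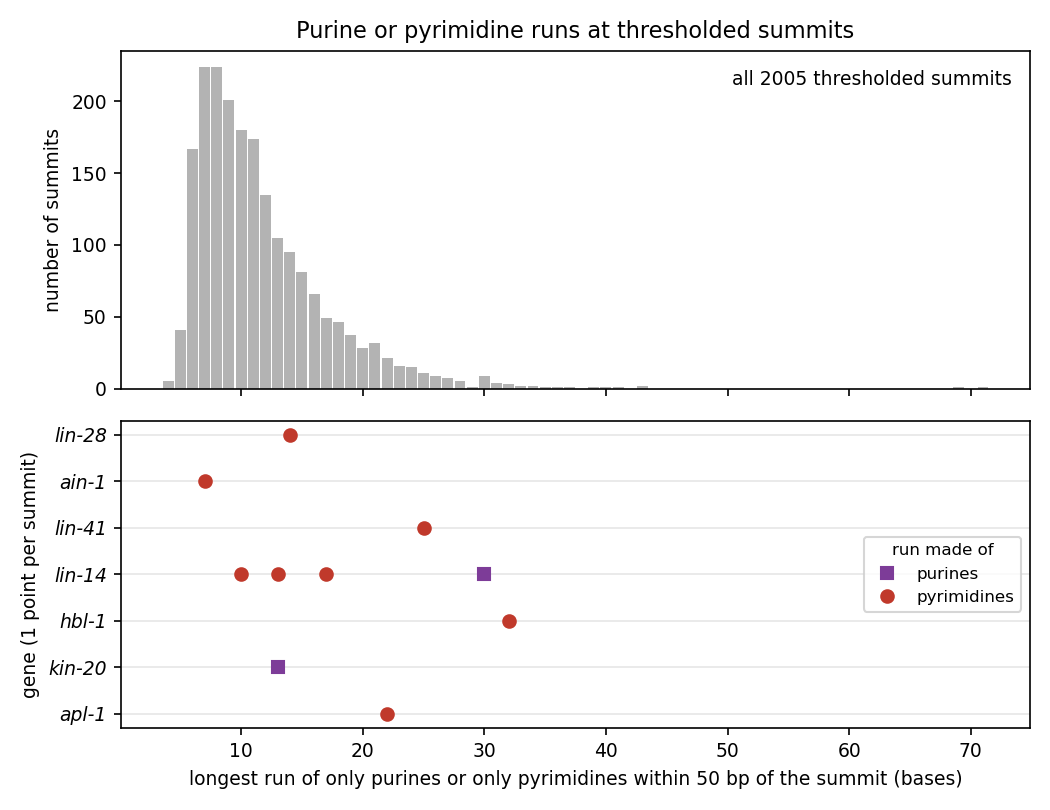
Longest run of a single kind, purines or pyrimidines, within 50 bp of a summit, in bases, for all thresholded summits (upper panel, number of summits) and for the 10 summits at the timing genes (lower panel, 1 point per summit, squares for purines). The longest runs at the timing genes were those of hbl-1 (32 bases) and lin-14 (30 bases), and the shortest was that of ain-1 (7 bases).

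The genes for RNA-binding regulators, lin-28 and lin-41, each had a thresholded summit with a strong region in both replicates. LIN-28 blocks the maturation of let-7, and LIN-41 is a let-7 target of the TRIM-NHL family. The lin-28 summit (WBGene00003014, chromosome I, 8407630 to 8410804, minus strand) lay 923 bp inside the gene. In the shorter transcript, F02E9.2b.1, this position was in the 5' UTR of exon 1, 39 bp from the annotated start, whereas in F02E9.2a.1 it was in intron 1, which is 1322 bp long. Its signal was 43.6, with ranks of 1300 in replicate 1 (signal 22.8) and 396 in replicate 2 (signal 25.9). A weaker pooled summit lay 635 bp upstream (signal 22.2, ranks 3467 and 2398).

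The lin-41 summit (WBGene00003026, chromosome I, 9334800 to 9342496, minus strand) lay 1490 bp upstream at a signal of 58.6, with ranks of 667 in replicate 1 (signal 30.8) and 337 in replicate 2 (signal 27.1). The only other pooled summit in its window had a signal of 8.85 and lay 44 bp upstream of the 5' end. Longest runs of pyrimidines within 50 bp measured 25 bases at lin-41 and 14 at lin-28.

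LIN-46, a scaffold protein related to gephyrin, acts downstream of LIN-28. Its gene (WBGene00003031, chromosome V, 12968855 to 12970730, plus strand) had 1 pooled summit, 838 bp upstream, with a signal of 23.1 and a rank of 2694. The start of R186.8, named here with the value known, was 35 bp away. Replicate 1 had an overlapping region at rank 2627 (signal 14.8) and replicate 2 had none.

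Over the 10 thresholded summits, 7 were overlapped by a region in the top lists of both replicates, beside 60.9% of all thresholded peaks. The exceptions were the summit at kin-20 and the weaker pair at lin-14. Replicate 1 gave the better rank at 4 of the 10 and replicate 2 at 6. The ranks ran from 143 to 3225 in replicate 1 and from 179 to 2459 in replicate 2. Below the threshold lay 49 further pooled summits, 25 in introns, 19 upstream, 4 in coding exons and 1 in a 5' UTR. Both replicates had an overlapping region at 23 of these (32.3% over all pooled regions below the threshold), 1 replicate had one at 20, and neither had one at 6. Over all pooled regions below the threshold, shares by position and for 1 or neither replicate were not counted. At 10 of the 23, a replicate region was shared with another pooled summit of the same gene, as at ain-1, where the summit 764 bp upstream (signal 7.05) overlapped the same replicate regions as the thresholded peak.

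A further list of 30 genes named with the pathway (microRNAs, cofactors and associated regulators, written with earlier results known) was counted by the same rule. Of its 24 protein-coding genes, 11 (45.8%) had a thresholded summit, beside the 12.9% of all protein-coding genes. By window length, 3 of 5 had one under 10 kb (background 10.6%), 6 of 17 from 10 to under 20 kb (23.2%) and 2 of 2 at 20 kb or more (37.9%). The strongest lay at nhl-2, which encodes a TRIM-NHL cofactor of microRNAs, 820 bp upstream with a signal of 109 and ranks of 85 and 16 in replicates 1 and 2, although the start of tag-340 was nearer (603 bp). At puf-9, a Pumilio family gene that begins 13836 bp beyond the end of hbl-1, a summit 301 bp upstream had a signal of 96.5 and ranks of 45 and 180.

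Signals at the other protein-coding genes of that list were lower. The hrpk-1 summit, 197 bp inside the gene, had a signal of 65.0, xrn-2 had 55.6, sea-2 had 48.1 and 33.6 in its introns, cgh-1 had 47.0, alg-1 had 44.9, tim-1 had 44.4 and daf-12 had 41.0. The product of alg-1 is an Argonaute of the microRNA pathway, and DAF-12 is a nuclear receptor that controls let-7 family microRNAs. The daf-12 summit, in an intron, ranked 288 in replicate 1 and 13880 in replicate 2. The related genes myrf-2 and myrf-1 had signals of 34.8 and 28.6 and of 31.7. Of the 13 summits at these 11 genes, 8 had their nearest protein-coding 5' end at the listed gene.

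No thresholded summit was found at the other 13, namely dre-1, blmp-1, alg-2, ain-2, lin-66, lep-2, mab-10, nhr-23, nhr-25, nhr-85, pup-2, dcr-1 and col-19. Of the 5 microRNA genes, let-7 and mir-84 had a thresholded summit, beside 19.5% of 261 annotated microRNA genes. The let-7 summit lay 1845 bp upstream of the annotated gene and 137 bp from the start of C05G5.2 (signal 52.7, ranks 241 and 4797), and that of mir-84 lay 2366 bp upstream (signal 46.2, ranks 880 and 941). The windows of lin-4, mir-48 and mir-241 held none. The non-coding RNA gene lep-5 had a summit 3263 bp upstream (signal 31.3).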

How the data were processed

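ChIP-seq peak lists on ce11 were used as the authors deposited them. Per the deposited file descriptions, calls were made on either replicate and on both pooled, each with a control alignment. The irreproducible discovery rate then gave the thresholded list from those 3 lists. The signal value in column 7 is the authors' own, as deposited. Not given in the sources used here are the aligner, the peak caller, tool versions and the cutoff, and the depth is unknown. The ce10 lists were not used here.

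Summits were assigned with Python 3.11.15 to windows from 5 kb upstream of the annotated 5' end to the gene's end (Ensembl release 115). Where several replicate regions overlapped a peak by at least 1 bp, the best rank was taken. Positions are counted from 1. Within a gene, coding exon took precedence over 5' UTR, 3' UTR and intron. Motifs were searched on both strands. On simulated data, window counts and upstream placement were recovered for 200 of 200 genes. Upstream placement was checked by the same distance rule that assigns it, and intron, exon and UTR calls were not checked in this way.

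The members and lists were chosen with earlier results of these data known. Named were the 10 members, genes of the further list with a thresholded summit, and the gene whose start was nearest to a member's thresholded summit. Other names were chosen after their values were seen, tag-340, C05G5.2 and the list genes without a thresholded summit among them. Labelled biological replicates were not described further, so their differences may be technical.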

Additional observations from a re-analysis of the deposited data

How the results depend on the processing

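The same 7 genes had a summit with a window of 10 kb upstream (background 18.9%), with any overlap of the region (13.4%), with summits given only to the nearest 5' end (6.94%), in the strongest 50% of thresholded peaks (6.73%) and in the top list of replicate 1 alone (12.7%). With 2 kb upstream hbl-1 dropped out (6 genes, background 8.71%), and with 1 kb lin-41 as well (5 genes, 6.99%). With the gene alone, 3 genes (2.56%) and 6 summits were left at lin-28, lin-14 and kin-20, and 36 of the 59 pooled summits. Without replicate 1 or 2, the number of genes was 7 in each case (background 12.3% and 12.7%), but without replicate 1 lin-42 took the place of kin-20. The summits numbered 9 without replicate 2 and 10 without replicate 1, and the full replicate lists gave 58 and 60 in place of 59 pooled summits. With the top lists cut to 50% of their length, 3 of the 10 thresholded summits were overlapped in both. With longer top lists all 10 were. The count stayed at 7 when the summits had to lie within 100 bp, and when the overlap had to be at least 50%. Shares over all thresholded peaks were not counted at these settings, so the drop to 3 cannot be set beside a background. Of 100 counts of single genes, 11 moved by more than 1.5 times. Besides the windows, list cuts and single replicates above, the 100 include counts from the strongest pooled regions, as many as the thresholded list held. Those regions matched the thresholded list, so that setting could move no gene's count. Within 100 bp of the summits, added after the data were seen, RTAAAYA was at 1, TAAACA at 2, CTCTCTC at 2 and AGAGAGA at 4 of 10 (12.2%, 10.6%, 19.9% and 21.3% of all). GACGC stayed at none of the 10, beside 30.5% of all. The longest run at this width had a median of 23 bases, beside 13 over all thresholded summits. The cause of these shifts was not tested. No paired analysis was possible because the series has 1 group.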

Other observations

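Several regions below the threshold ranked far apart in the replicates or had an overlapping region in 1 of them, and none of those given here was in a replicate's top list. In intron 1 of kin-20, 2220 bp from the 5' end, a pooled summit (signal 22.4) ranked 22229 in replicate 1 and 2344 in replicate 2. In lin-42, 10843 bp from the 5' end, a pooled summit (signal 7.5) ranked 28271 in replicate 1 and 2811 in replicate 2. In intron 3 of lin-14, 11163 bp from the 5' end, a pooled summit (signal 13.0) ranked 2904 in replicate 1 and had no overlapping region in replicate 2. Upstream of apl-1, 4076 bp from the 5' end, a pooled summit (signal 13.4) overlapped a region at rank 4216 in replicate 1 and none in replicate 2. That region, the best of 3 in replicate 1, also overlapped the pooled summit at 4301 bp (signal 11.4).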
